A study of Mus musculus with 33 samples.

Results

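Voltage-gated ion channel subunits were followed across 33 mouse hippocampi. They were found by gene symbol: Scn for sodium channels, Kcna to Kcnd, Kcnh, Kcnq, Kcnv, Kcnab and Kcnip for potassium channels, Cacna, Cacnb and Cacng for calcium channels, and Hcn for hyperpolarization-activated channels. On the array 69 such genes were read by a probe set that names a single gene. Where a gene had several probe sets, the brightest by the mean over all 33 arrays was used, and 57 of the 69 had a mean signal above 13, in the arbitrary linear units of the array. These 57 stand among 12971 genes that passed the same steps, and the choice used the mean over all arrays, not a difference between groups. They comprise 12 pore subunits of the Kv1 to Kv4 families, 3 of the EAG family, 2 of the KCNQ family, 1 silent Kv subunit, 3 Kv beta subunits, 4 KChIP subunits, 5 sodium channel pores, 3 sodium channel beta subunits, 8 calcium channel pores, 4 alpha2delta, 3 beta and 6 gamma subunits, and 2 HCN channels. The pattern also takes in Kcnq1ot1, an antisense RNA of the Kcnq1 locus that is no channel subunit. Without it 56 members remain, and none of the counts of members at an unadjusted p under 0.05 given below is altered.

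The 12 genes at or below the limit were Cacna1s, Scn10a, Kcnq1, Kcnh5, Cacng1, Scn9a, Scn11a, Kcnv2, Cacng6, Kcna7, Kcnh7 and Kcnh8. Several of these are best known from skeletal muscle, heart, retina or peripheral sensory neurons. Kcnh8 lay just outside the limit with a mean signal of 12.15 and Cacna2d4, an alpha2delta subunit known from the retina, just inside it with 15.46. The members lie on 16 chromosomes.

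As background, voltage-gated channels open and close with the membrane potential and so set how a neuron fires. Sodium channels carry the upstroke of the action potential, Kv channels end it and hold back the next, calcium channels turn it into transmitter release and calcium signals, and HCN channels open on hyperpolarization and shape resting potential and rhythm. Each works as a pore subunit with auxiliary subunits that set its gating and its place in the membrane. In hippocampal pyramidal cells, Kv4 pores with KChIP partners carry the A-type current of the dendrites, and KCNQ pores carry the M-current that acetylcholine turns down.

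RNA was taken from the right hippocampus of male mice on an SJL × C57BL/6J background, aged 20 weeks, 1 Affymetrix MOE430 2.0 array per animal. In 1 group of 11, Tg2576 animals were given TO901317, a synthetic compound that activates liver X receptors, at 50 mg per kg per day by oral gavage. The other 11 Tg2576 animals and 11 wild-type littermates were given the vehicle, Tween 80 with sodium carboxymethylcellulose. Tg2576 animals are heterozygous for human APP with the Swedish mutation of familial Alzheimer's disease, which is expressed from the prion promoter and so not in neurons alone, and both Tg2576 groups carry it. The labels give 7 days of dosing in the design and 5 days in the treatment protocol. Perfusion followed the last dose by 1 hour. Wild-type animals given TO901317 were not analysed here, so the drug was compared within Tg2576 animals only.

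The tissue label was set beside marker genes: 7 of 7 general neuron markers, 7 of 7 markers of dentate granule cells and 7 of 7 markers of the CA fields passed the signal limit. So did 7 of 7 markers of the thalamus and 7 of 7 of meninges and fibroblasts, so passing this limit does not tell the tissue apart. All arrays share a trimmed mean of 99.97, have medians between 19.4 and 28.9, and correlate with each other at 0.964 to 0.989. Vehicle Tg2576 replicates 3 and 4 stood apart in the ratio of 3′ to 5′ control probe sets for Gapdh. This measure responds to RNA length and to labelling. The log2 ratio was 0.11 and 0.08 on these arrays, -0.08 on vehicle Tg2576 replicate 5 and at most -0.09 on the other 30. Replicate 5 thus lay close to the other arrays on this ratio. The fit without replicates 3 and 4 was set in advance, while the fit that also left out replicate 5 was not. With replicates 3, 4 and 5 all left out, 11 of 57 members changed the sign of their difference between treated and vehicle Tg2576. Between vehicle Tg2576 and wild type 11 did so. Of these, 0 had an unadjusted p under 0.05 with all arrays. The difference moved by over 0.1 on the log2 scale for 6 members in each of these comparisons, and by up to 0.33, for Cacng8.

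No voltage-gated channel subunit passed an adjusted p under 0.05 in any of the 3 comparisons (limma on log2(signal + 16), Benjamini-Hochberg over the 12971 genes). Between TO901317-treated and vehicle Tg2576 animals 0 of 57 members were called, beside 38 of all genes, or 0.293% (0.123% higher and 0.17% lower). Between vehicle Tg2576 and wild type it was 0 of 57 beside 30 genes, or 0.231% (0.123% higher and 0.108% lower), and between treated Tg2576 and wild type 0 of 57 beside 46 genes, or 0.355% (0.139% higher and 0.216% lower). With so few calls among all genes, 0 of 57 is close to the background share. The smallest adjusted p of a member was 0.151 (Cacna1g), 0.112 (Hcn3) and 0.323 (Kcnip2) in these comparisons in turn. No member separated the groups without overlap in any comparison, which 0.0154%, 0.0463% and 0.0308% of all genes did.

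At an unadjusted p under 0.05 the members were counted too, as a description. Between treated and vehicle Tg2576, 9 members (15.8%) reached it, beside 11.6% of all genes. Of these 5 were higher, beside 5.04% of all genes, and 4 lower, beside 6.59%. Between vehicle Tg2576 and wild type, 10 members (17.5%) reached it, beside 11.8% of all genes. Here 6 were higher, beside 6.31%, and 4 lower, beside 5.46%. Between treated Tg2576 and wild type, 5 members (8.77%) did, beside 9.36% of all genes, with 3 higher, beside 4.09%, and 2 lower, beside 5.27%. Among these shares the widest gap to the background was 17.5% beside 11.8%. The difference was above 0 for 37, 29 and 32 of the 57 members, or 64.9%, 50.9% and 56.1%. Over all genes the share was 45.7%, 53.1% and 48.8% in these comparisons. The 64.9% between treated and vehicle Tg2576 stood farthest from its background, and no test was made of it. The median log2 difference over the members was 0.01, 0.00 and 0.02 in these comparisons, beside -0.01, 0.01 and 0.00 over all genes.

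**Figure D1:**
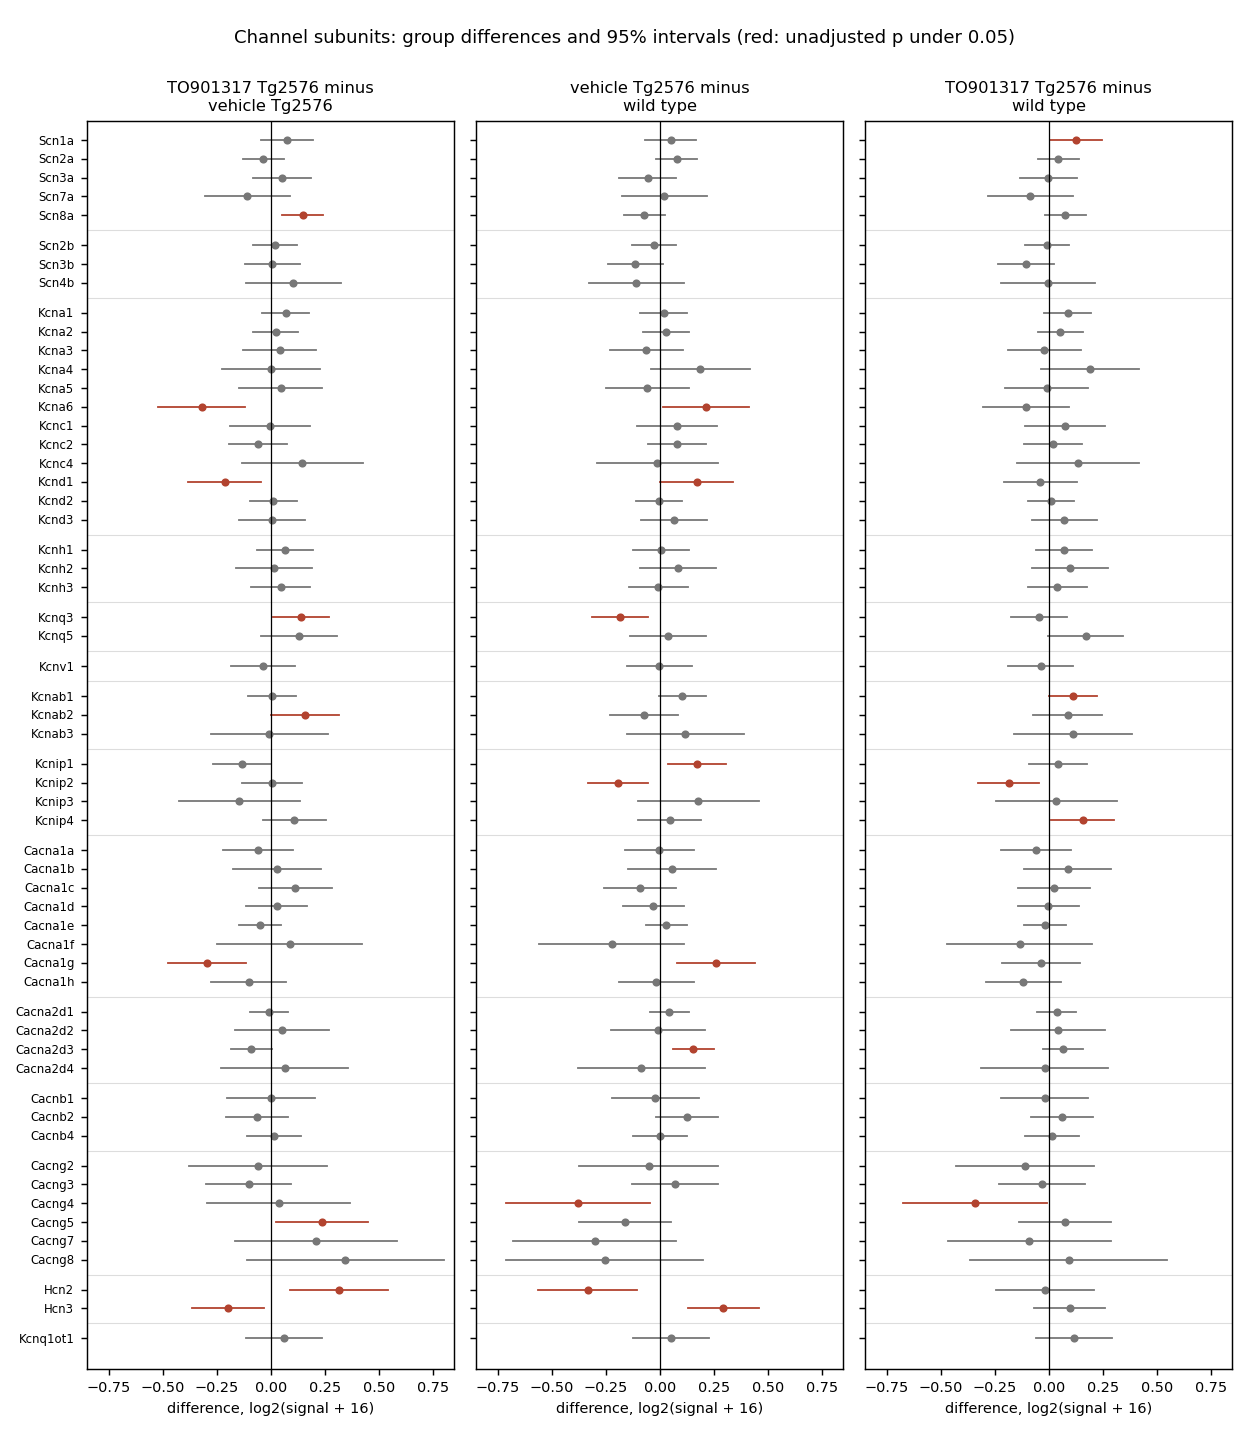
Log2 difference (x axis, log2(signal + 16)) of each of the 57 members (y axis, grouped by channel class) with its 95% interval, in 3 panels for treated minus vehicle Tg2576, vehicle Tg2576 minus wild type, and treated Tg2576 minus wild type. Red marks the 9, 10 and 5 members at an unadjusted p under 0.05, and the widest intervals are those of Cacng7 and Cacng8.

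The size of difference that the data leave room for was read from the 95% intervals. The 95% interval of the difference lay within -0.5 to 0.5 on the log2 scale for 53 of 57 members between treated and vehicle Tg2576, for 52 between vehicle Tg2576 and wild type, and for 55 between treated Tg2576 and wild type. Over all genes the shares were 95.1%, 94.7% and 96.1%. Within the narrower range of -0.25 to 0.25 lay 31, 29 and 34 of 57 members, beside 7490, 7474 and 7641 of all 12971 genes. The spread between animals of a group, as the pooled SD on the log2 scale, ran from 0.10 for Cacna2d1 to 0.55 for Cacng8. Of the 57 members, 40 had a larger spread than the median of the 500 genes nearest to them in mean signal. With 11 arrays per group, every value carries this animal-to-animal error.

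Averaged per animal as the mean deviation of the genes from their own mean, the 57 members together stood at 0.01 ± 0.03 in treated Tg2576 animals, -0.01 ± 0.03 in vehicle Tg2576 animals and 0.00 ± 0.03 in wild-type animals (log2, SD, n = 11 each). These groups overlap almost completely. The level of the gamma subunits was 0.01 ± 0.18 in treated Tg2576, -0.10 ± 0.20 in vehicle Tg2576 and 0.08 ± 0.15 in wild type. Without vehicle Tg2576 replicates 3, 4 and 5 the vehicle Tg2576 value was -0.01 ± 0.16 (n = 8). Sodium channel pores stood at 0.02 ± 0.07, -0.01 ± 0.05 and -0.01 ± 0.08 in the same groups. In whole tissue, fewer cells of a type and less RNA per cell cannot be told apart.

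**Figure D2:**
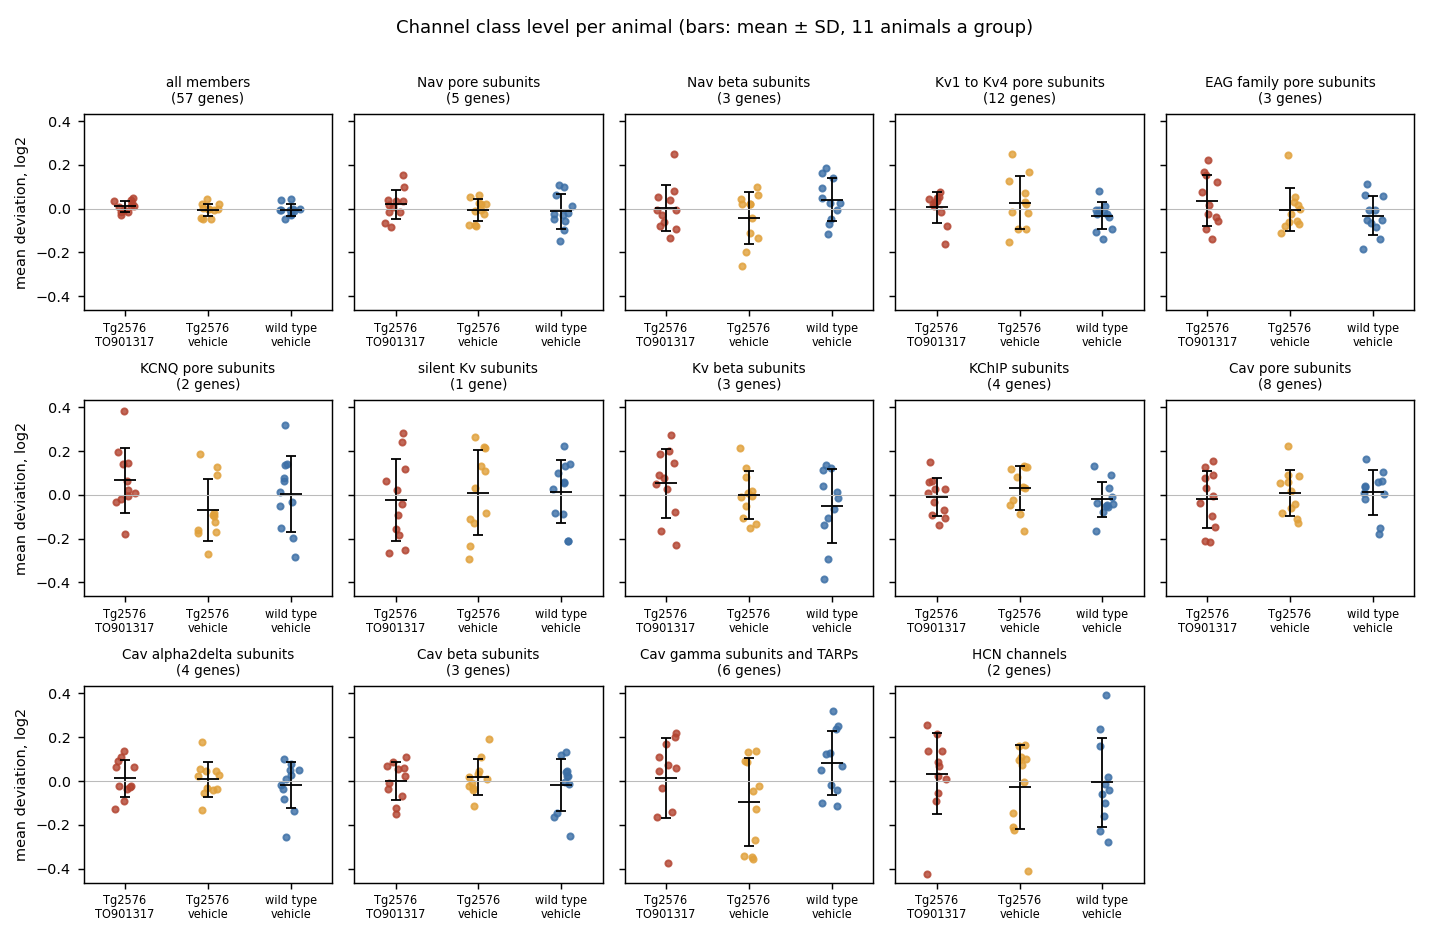
Level of each channel class per animal (y axis, mean deviation of its genes from their mean over 33 arrays, log2) in treated Tg2576, vehicle Tg2576 and wild-type animals (x axis). Each point is 1 animal and the bars give mean and SD of 11. The groups overlap in every class, and the gamma subunit level was -0.10 ± 0.20 in vehicle Tg2576, against 0.08 ± 0.15 in wild type. Without vehicle replicates 3, 4 and 5 the vehicle Tg2576 value was -0.01 ± 0.16.

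Among sodium channels, Scn8a encodes Nav1.6, the main pore of the axon initial segment and of nodes of Ranvier. Its signal ran over 968, 1083 and 1214 in TO901317-treated Tg2576 animals, 903, 962 and 1122 in vehicle Tg2576 animals and 943, 979 and 1211 in wild-type animals (lowest, median and highest animal, as in all such triplets below). All 11 treated animals lay above the vehicle Tg2576 median and 4 above the highest vehicle animal, with overlap below that. The difference was 0.15 (SE 0.05, adjusted p = 0.181) between treated and vehicle Tg2576 and -0.07 between vehicle Tg2576 and wild type. On the other 3 Scn8a probe sets the difference between treated and vehicle animals was also above 0, at 0.13, 0.20 and 0.13. Without vehicle Tg2576 replicates 3 and 4 the Scn8a difference was 0.18 (adjusted p = 0.0941) and that of the first of these probe sets 0.05. It missed the limit in both fits.

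Of the other sodium channel pores, Scn1a reached an unadjusted p under 0.05, between treated Tg2576 and wild type. Scn1a, the Nav1.1 pore known from fast-spiking interneurons, read 309, 396 and 427 in treated Tg2576, 299, 361 and 415 in vehicle Tg2576 and 288, 353 and 406 in wild type. In 5 treated animals it lay above every wild-type animal, and the groups overlap. Its difference was 0.13 (SE 0.06, adjusted p = 0.496) between treated Tg2576 and wild type and 0.08 between treated and vehicle Tg2576. Between treated Tg2576 and wild type its dimmer probe sets gave 0.08 and 0.03, and the mean over its probe sets 0.08. Scn2a, the Nav1.2 pore of unmyelinated axons, read 1157, 1216 and 1323 in treated Tg2576, 1023, 1269 and 1581 in vehicle Tg2576 and 1129, 1193 and 1342 in wild type. Its differences were -0.03 between treated and vehicle Tg2576 and 0.08 between vehicle Tg2576 and wild type, and without vehicle replicates 3, 4 and 5 they were 0.03 and 0.01. On the brightest probe sets, the 95% interval of every sodium channel pore lay within -0.25 to 0.25 between vehicle Tg2576 and wild type. Dimmer probe sets did not all do so: one of Scn2a was 0.28 (SE 0.11, adjusted p = 0.367) and one of Scn7a -0.24 (SE 0.10, adjusted p = 0.41) there, and one of Scn1a had an SE of 0.20. The remaining pores, Scn3a and Scn7a, were 0.05 and -0.11 between treated and vehicle Tg2576.

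Sodium channel beta subunits are small adhesion-type partners of the pore. All 3, Scn2b, Scn3b and Scn4b, had a difference below 0 between vehicle Tg2576 and wild type. Scn3b read 1071, 1378 and 1582 in treated Tg2576, 1163, 1339 and 1632 in vehicle Tg2576 and 1189, 1476 and 1740.3 in wild type. In vehicle Tg2576, 2 of 11 animals lay above the wild-type median, the ranges overlapped, and the difference was -0.11 (SE 0.06, adjusted p = 0.499). Treated Tg2576 animals stood at -0.11 against wild type. Scn2b was -0.03 and Scn4b, the subunit tied to resurgent current, -0.11 between vehicle Tg2576 and wild type. Without vehicle replicates 3, 4 and 5 Scn4b was 0.02.

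Of the Kv1 to Kv4 pores, Kcna6 and Kcnd1 were the 2 at an unadjusted p under 0.05 between treated and vehicle Tg2576, both lower, and the same 2 between vehicle Tg2576 and wild type, both higher. These comparisons share the 11 vehicle Tg2576 arrays, so they are not independent. Kcna6, the Kv1.6 delayed rectifier, read 91.1, 116 and 167 in TO901317-treated Tg2576 animals, 120.4, 144 and 235 in vehicle Tg2576 animals and 96.9, 129 and 170.2 in wild-type animals. In 7 treated animals it lay below every vehicle Tg2576 animal, while 4 vehicle Tg2576 animals lay above every wild-type animal. The differences were -0.32 (SE 0.10, adjusted p = 0.167) between treated and vehicle Tg2576 and 0.21 (SE 0.10, adjusted p = 0.385) between vehicle Tg2576 and wild type. Without vehicle Tg2576 replicates 3 and 4 they were -0.24 and 0.13. The other Kcna6 probe sets gave 0.07 and 0.08 between treated and vehicle Tg2576, so the probe sets disagree in sign, and with the mean over the probe sets the difference was -0.06.

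Kcnd1, the Kv4.1 A-type pore, read 31.3, 49.6 and 56.9 in treated Tg2576, 41.9, 55.4 and 71.3 in vehicle Tg2576 and 26.6, 48.5 and 61.1 in wild type. Vehicle Tg2576 animals were high, with 10 of 11 above the wild-type median, and the groups overlap. Its differences were -0.21 (SE 0.08, adjusted p = 0.295) and 0.17 (SE 0.08, adjusted p = 0.412) in the same order. The mean over its probe sets gave -0.08 and 0.03, and with 4 tissue marker scores as covariates (dentate granule cells, thalamus, choroid plexus and oligodendrocytes) the value against wild type was 0.03. The dendritic A-type pore Kcnd2 (Kv4.2) read 652, 819 and 859.9 in treated Tg2576, 668, 761 and 864 in vehicle Tg2576 and 647, 768 and 847 in wild type, with differences of 0.01 and 0.00. Kcna1 (Kv1.1) and Kcna2 (Kv1.2), the axonal low-threshold pores, differed by 0.07 and 0.02 between treated and vehicle Tg2576, and by 0.02 and 0.03 between vehicle Tg2576 and wild type. Kcnc1 and Kcnc2, the fast Kv3 pores of interneurons, differed by 0.00 and -0.06 between treated and vehicle Tg2576. Without vehicle replicates 3, 4 and 5 Kcnc1 was 0.14 there, and Kcnc4 0.31, against 0.15 with all arrays. With all arrays, Kcna3, Kcna4, Kcna5, Kcnc4 and Kcnd3 lay between 0.00 and 0.15 there, and Kcna4 was 0.19 (SE 0.11, adjusted p = 0.64) between treated Tg2576 and wild type. A dimmer Kcna4 probe set gave 0.29 in that comparison (SE 0.10, adjusted p = 0.311 over 23534 probe sets), the smallest adjusted p of any member probe set there. Between vehicle Tg2576 and wild type it gave 0.25 (adjusted p = 0.349).

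KChIPs are calcium-binding partners that raise the surface level of Kv4 pores. Kcnip2 read 637, 906 and 1060.0 in treated Tg2576, 749, 901 and 976 in vehicle Tg2576 and 866, 984 and 1198 in wild type. In neither Tg2576 group did most animals reach the wild-type median: 3 of 11 treated and 0 of 11 vehicle animals lay above it. The difference was -0.19 (SE 0.07, adjusted p = 0.323) between treated Tg2576 and wild type, -0.19 (SE 0.07, adjusted p = 0.226) between vehicle Tg2576 and wild type, and 0.01 between treated and vehicle Tg2576. The comparisons against wild type share the wild-type arrays. Between vehicle Tg2576 and wild type it was -0.09 with the 4 marker scores as covariates and -0.40 with the mean over its probe sets. That mean includes a dimmer probe set that read low on vehicle Tg2576 replicates 3, 4 and 5. Between treated Tg2576 and wild type the values were -0.12 and -0.11, and the dimmer probe set alone gave -0.03.

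Kcnip1, a KChIP known from interneurons, had an unadjusted p under 0.05 between vehicle Tg2576 and wild type. It read 81.9, 106 and 113 in treated Tg2576, 90.7, 115 and 136 in vehicle Tg2576 and 86.8, 99.4 and 114 in wild type. In 6 vehicle Tg2576 animals it lay above the highest wild-type animal, with overlap among the rest. The difference was 0.17 (SE 0.07, adjusted p = 0.276) between vehicle Tg2576 and wild type and -0.13 (SE 0.07, adjusted p = 0.445) between treated and vehicle Tg2576. Without vehicle Tg2576 replicates 3, 4 and 5 it was 0.10 against wild type. Kcnip4, an abundant hippocampal KChIP, read 276, 352 and 396 in treated Tg2576, 225, 305 and 410.1 in vehicle Tg2576 and 259.6, 313 and 341 in wild type. In 7 treated animals it lay above every wild-type animal, with overlap below, and the difference between treated Tg2576 and wild type was 0.16 (SE 0.07, adjusted p = 0.478). On its other 2 probe sets that difference was 0.15 and 0.08. Kcnip3, a KChIP that is also a transcriptional repressor, was 0.18 between vehicle Tg2576 and wild type with a wide spread (pooled SD 0.34).

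Kv beta subunits are cytoplasmic partners of Kv1 pores. Kcnab1 read 825, 1057 and 1153 in treated Tg2576, 906, 1015 and 1179.6 in vehicle Tg2576 and 779, 972 and 1014 in wild type. In 7 treated animals and 6 vehicle Tg2576 animals it lay above the highest wild-type animal, and the ranges overlap. The difference was 0.11 (SE 0.05, adjusted p = 0.522) between treated Tg2576 and wild type and 0.11 between vehicle Tg2576 and wild type. Kcnab2 read 960.1, 1211 and 1516 in treated Tg2576, 939.5, 1068 and 1319 in vehicle Tg2576 and 849, 1186 and 1468 in wild type, and was 0.16 (SE 0.08, adjusted p = 0.425) between treated and vehicle Tg2576, with 10 of 11 treated animals above the vehicle median. Kcnab3 was -0.01 in that comparison.

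KCNQ pores gave 1 member at an unadjusted p under 0.05. Kcnq3, a partner subunit of the M-channel, read 536, 613 and 718 in treated Tg2576, 478, 539 and 689.9 in vehicle Tg2576 and 543, 647 and 819.8 in wild type. In 6 vehicle Tg2576 animals it lay below every wild-type animal, and 10 of 11 treated animals lay above the vehicle Tg2576 median. The difference was 0.14 (SE 0.06, adjusted p = 0.387) between treated and vehicle Tg2576 and -0.18 (SE 0.06, adjusted p = 0.213) between vehicle Tg2576 and wild type, with the vehicle Tg2576 arrays in both. Without vehicle Tg2576 replicates 3, 4 and 5 these were 0.21 and -0.25. With the marker scores as covariates they were 0.09 and -0.08. Kcnq5 was 0.13 between treated and vehicle Tg2576 and 0.17 (SE 0.09, adjusted p = 0.554) between treated Tg2576 and wild type.

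The EAG family pores Kcnh1, Kcnh2 and Kcnh3 and the silent subunit Kcnv1, which forms channels with other Kv pores, showed little. Between treated and vehicle Tg2576 they were 0.07, 0.01, 0.05 and -0.04. The largest end of any of their 95% intervals was 0.28, for Kcnh2 between treated Tg2576 and wild type. Kcnq1ot1, the antisense RNA, was 0.06 between treated and vehicle Tg2576.

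Calcium channel pores divide into high-voltage types (Cacna1a to Cacna1f) and low-voltage T-types (Cacna1g and Cacna1h). Cacna1g, the Cav3.1 T-type pore of burst-firing neurons, had the smallest p of any member between treated and vehicle Tg2576. It read 67.7, 90.7 and 125 in TO901317-treated Tg2576 animals, 89.2, 112 and 185 in vehicle Tg2576 animals and 80.9, 93.9 and 113 in wild-type animals. Vehicle Tg2576 animals were high, with 5 of 11 above the highest wild-type animal, and 5 treated animals lay below the lowest vehicle animal. The difference was -0.30 (SE 0.09, adjusted p = 0.151) between treated and vehicle Tg2576 and 0.26 (SE 0.09, adjusted p = 0.207) between vehicle Tg2576 and wild type. Treated Tg2576 and wild type differed by -0.04.

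Markers of striatum were compared with Cacna1g over all 33 arrays, with group means left in, so differences between groups enter the correlation. The summed signal of 5 striatal markers (of 7 listed) ran over 328, 392 and 555 in treated Tg2576, 366, 465 and 779 in vehicle Tg2576 and 326, 377 and 494 in wild type. Across 33 arrays Cacna1g correlated with their mean at Pearson's r = 0.58 (permutation p = 0.00059, adjusted p = 0.0224 over 462 relations) and Spearman's rho = 0.40 (p = 0.0214, adjusted p = 0.213). Without the 2 arrays farthest from the median r was 0.48, and within the groups it was -0.09, 0.76 and 0.71 in treated Tg2576, vehicle Tg2576 and wild type. With the 4 marker scores as covariates, which do not include striatum, the Cacna1g difference was -0.20 between treated and vehicle Tg2576 and 0.04 between vehicle Tg2576 and wild type. With the thalamus score alone, a fit not set in advance, these differences were -0.29 and 0.25. The part of striatal tissue in the Cacna1g values was not tested.

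No high-voltage pore had an unadjusted p under 0.05 in any comparison. Cacna1a (P/Q-type, the main pore of fast release sites) read 44.6, 55.7 and 71 in treated Tg2576, 45.5, 58.8 and 72.1 in vehicle Tg2576 and 44.1, 61 and 79.7 in wild type, and Cacna1c (the L-type Cav1.2) read 111, 154 and 179.9 in treated Tg2576, 114, 125 and 185 in vehicle Tg2576 and 114, 146 and 196 in wild type. The groups overlap for both. Between treated and vehicle Tg2576 their differences were -0.06 and 0.11, and between vehicle Tg2576 and wild type 0.00 and -0.09. Cacna1b, Cacna1d and Cacna1e (N-type, L-type and R-type pores) lay between -0.05 and 0.03 between treated and vehicle Tg2576. Cacna1f, a retinal L-type pore, was dim, ranging over 3.12, 17.1 and 28.9 in treated Tg2576, 5.45, 11.6 and 28 in vehicle Tg2576 and 2.04, 19.6 and 38.2 in wild type. Its difference of -0.22 between vehicle Tg2576 and wild type had an SE of 0.17 and was -0.14 without vehicle replicates 3, 4 and 5. Cacna1h was -0.12 (SE 0.09, adjusted p = 0.736) between treated Tg2576 and wild type.

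Alpha2delta subunits carry calcium channels to the membrane, and the products of Cacna2d1 and Cacna2d2 bind gabapentin. Cacna2d3 was the member of this class at an unadjusted p under 0.05. It read 688, 759 and 847 in treated Tg2576, 721, 783 and 926 in vehicle Tg2576 and 678, 707 and 843 in wild type. All 11 vehicle Tg2576 animals lay above the wild-type median and 5 above every wild-type animal, with overlap below. The difference was 0.16 (SE 0.05, adjusted p = 0.132) between vehicle Tg2576 and wild type and -0.09 (SE 0.05, adjusted p = 0.459) between treated and vehicle Tg2576. Cacna2d1 had the narrowest spread of all members and differed by -0.01 and 0.04, with every 95% interval end within 0.13 of 0. Cacna2d2 and Cacna2d4 were 0.05 and 0.07 between treated and vehicle Tg2576.

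Cacna2d3 tracked the CA-field markers over all arrays, again with group means left in. Its r with their mean was 0.64 over 33 arrays (permutation p = 5e-05, adjusted p = 0.0115; rho = 0.61, p = 0.00023, adjusted p = 0.0213), and 0.57 without the 2 farthest arrays. Within groups r was 0.79 in treated Tg2576, 0.68 in vehicle Tg2576 and 0.33 in wild type. The CA-field markers summed to 2824, 3247 and 3325 in treated Tg2576, 2910, 3164 and 3606 in vehicle Tg2576 and 2719, 3154 and 3281 in wild type. With the 4 marker scores as covariates the Cacna2d3 difference between vehicle Tg2576 and wild type was 0.21. No CA-field score is among these 4, and the part of the CA fields in this difference was not tested.

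The cytoplasmic beta subunits Cacnb1, Cacnb2 and Cacnb4, which bring the pore to the membrane, differed little. Cacnb4 read 403, 472 and 559 in treated Tg2576, 400.4, 445 and 573 in vehicle Tg2576 and 400.2, 448 and 576 in wild type, overlapping throughout, and differed by 0.01 between treated and vehicle Tg2576 and by 0.00 between vehicle Tg2576 and wild type. Cacnb2 was 0.13 (SE 0.07, adjusted p = 0.503) between vehicle Tg2576 and wild type.

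Cacng genes had the largest median spread of the classes, a pooled SD of 0.40. Most of them encode transmembrane AMPA receptor regulatory proteins, which carry AMPA receptors to the synapse rather than calcium channels. Every one of the 6 had a spread larger than at least 86% of the 500 genes nearest to it in signal, and none of their 95% intervals lay within -0.25 to 0.25 between vehicle Tg2576 and wild type or between treated and vehicle Tg2576. Cacng4 read 12.1, 44.6 and 85.2 in treated Tg2576, 22.9, 39.2 and 70.1 in vehicle Tg2576 and 30.9, 62.4 and 99.7 in wild type. The wild-type median was exceeded by 1 of 11 treated and 2 of 11 vehicle Tg2576 animals, and the ranges overlap. The difference was -0.34 (SE 0.16, adjusted p = 0.522) between treated Tg2576 and wild type and -0.38 (SE 0.16, adjusted p = 0.346) between vehicle Tg2576 and wild type. A dimmer Cacng4 probe set gave -0.18 and -0.17. Cacng5 was 0.24 (SE 0.10, adjusted p = 0.368) between treated and vehicle Tg2576, with 9 of 11 treated animals above the vehicle median. A dimmer Cacng5 probe set, with a mean signal of 15.9, gave 0.06 there. Cacng2, the stargazin gene, was -0.06 and Cacng3 -0.10 in that comparison.

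For Cacng7 and Cacng8 a few arrays stood apart. Cacng8, the gamma-8 partner of hippocampal AMPA receptors, read 9.36, 26.1 and 47.6 in TO901317-treated Tg2576 animals, 0.764, 22.9 and 45.9 in vehicle Tg2576 animals and 6.38, 20.7 and 45.7 in wild-type animals. Vehicle Tg2576 replicates 3, 4 and 5 read 0.764, 1.97 and 0.82, the lowest 3 values of all. Cacng7 read 51.2, 62.8 and 98.9 in treated Tg2576, 17.3, 72.5 and 106 in vehicle Tg2576 and 42.7, 74.2 and 109.9 in wild type, with 17.3 and 18.5 in vehicle Tg2576 replicates 3 and 4, both below every other array. The differences between treated and vehicle Tg2576 were 0.35 (SE 0.22, adjusted p = 0.596) for Cacng8 and 0.21 (SE 0.19, adjusted p = 0.728) for Cacng7. Without vehicle replicates 3 and 4 they were 0.15 and -0.04, and without replicates 3, 4 and 5 0.02 and -0.12.

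The 2 HCN channels lay opposite to each other. Hcn2, a widespread cAMP-sensitive pore, read 56.5, 99.9 and 119.8 in TO901317-treated Tg2576 animals, 51.7, 76.6 and 105 in vehicle Tg2576 animals and 65.7, 109.6 and 139.9 in wild-type animals. No vehicle Tg2576 animal reached the wild-type median, and 10 of 11 treated animals lay above the vehicle median, with overlap in both comparisons. The difference was 0.32 (SE 0.11, adjusted p = 0.233) between treated and vehicle Tg2576 and -0.33 (SE 0.11, adjusted p = 0.195) between vehicle Tg2576 and wild type. Vehicle Tg2576 replicates 3, 4 and 5 read 58.6, 51.7 and 53.9. Without replicates 3 and 4 the differences were 0.24 and -0.26 (unadjusted p = 0.0427 and 0.0301, adjusted p = 0.455 and 0.412). Without all 3 arrays they were 0.18 and -0.20, and neither reached an unadjusted p of 0.05 (p = 0.114 and 0.084).

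Hcn3, a slower pore that responds little to cAMP, lay the other way. It read 47.2, 61 and 75.1 in treated Tg2576, 52.6, 72.4 and 87.5 in vehicle Tg2576 and 36.3, 52.5 and 75 in wild type. All 11 vehicle Tg2576 animals lay above the wild-type median and 4 above every wild-type animal, while 2 of 11 treated animals lay above the vehicle median. The difference was 0.29 (SE 0.08, adjusted p = 0.112) between vehicle Tg2576 and wild type, the smallest p of any member there, and -0.20 (SE 0.08, adjusted p = 0.328) between treated and vehicle Tg2576. Without vehicle Tg2576 replicates 3 and 4 the value against wild type was 0.33 (adjusted p = 0.0959). The values against the vehicle Tg2576 arrays rest on the same 11 arrays in both comparisons. Treated Tg2576 animals and wild type differed by -0.02 for Hcn2 and 0.10 for Hcn3.

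**Figure D3:**
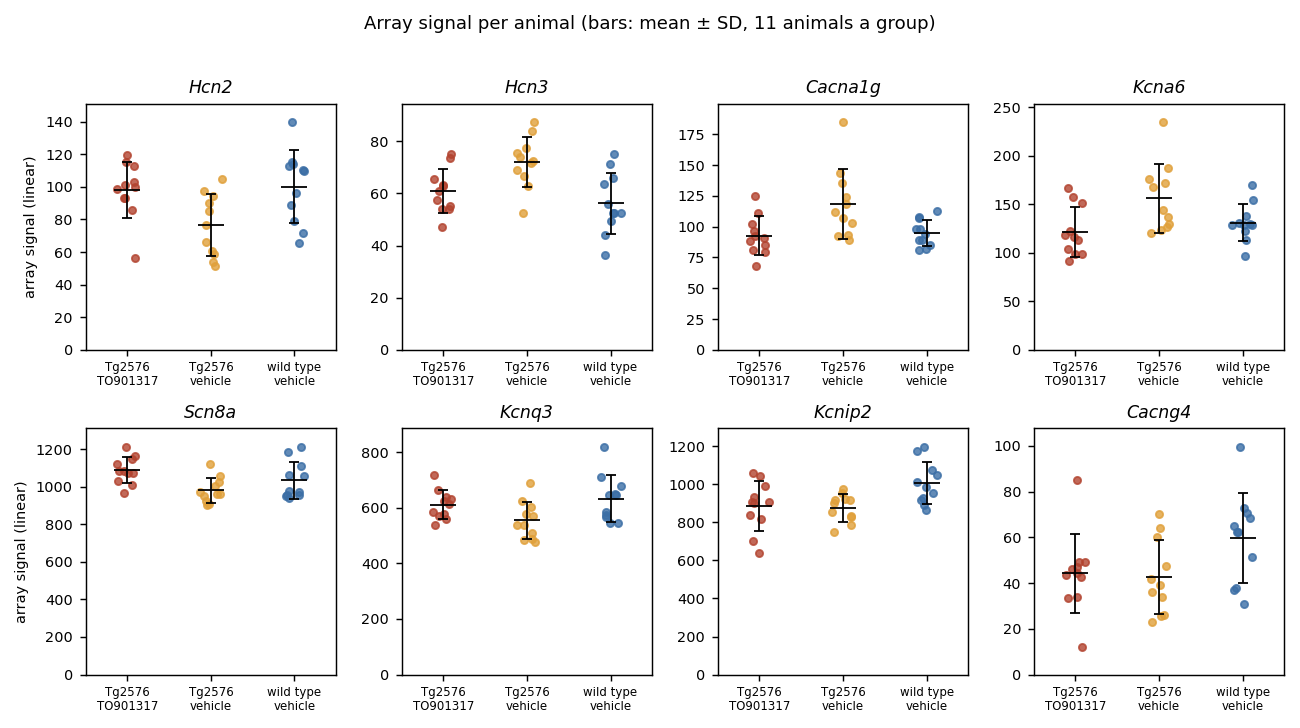
Linear array signal (y axis) of 8 members in treated Tg2576, vehicle Tg2576 and wild-type animals (x axis). Each point is 1 animal and the bars give mean and SD of 11. The groups overlap for every gene, with vehicle Tg2576 animals low for Hcn2 and high for Hcn3, Cacna1g and Kcna6.

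Other probe sets of the same genes were compared as well. Of the 57 members, 42 had at least 1 further probe set above the limit, 70 in all. None of the 127 member probe sets passed an adjusted p under 0.05 over the 23534 single-gene probe sets in any comparison, beside 0.132%, 0.161% and 0.166% of all probe sets between treated and vehicle Tg2576, vehicle Tg2576 and wild type, and treated Tg2576 and wild type. The sign of the difference matched that of the brightest probe set in 51 of 70, 36 of 70 and 51 of 70 cases in the same order.

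Between treated and vehicle Tg2576, the widest gap to the brightest probe set of the same gene was in Kcnab2. Its dimmer probe set read 132, 398 and 482 in treated Tg2576, 9.29, 334 and 396 in vehicle Tg2576 and 156, 344 and 433 in wild type. Vehicle Tg2576 replicates 3, 4 and 5 read 9.29, 17.1 and 57.7 there, below every other array, while on the brighter probe set the same animals read 1246, 1319 and 1068. The difference of the dimmer probe set was 0.91 (SE 0.41) between treated and vehicle Tg2576, and 0.30 without replicates 3 and 4. The dimmer probe set of Kcnip2 behaved alike, with 33.1, 42.5 and 79.9 in these 3 animals. Its difference between vehicle Tg2576 and wild type was -0.60 with all arrays and -0.27 without replicates 3 and 4.

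Vehicle Tg2576 replicates 3 and 4 were the lowest 2 of 33 arrays on 10 of 127 member probe sets (7.87%) and the highest 2 on 3 (2.36%), beside 3.05% and 1.42% of all single-gene probe sets. The 3 on which they were highest read Scn2a, Kcnc1 and Kcna2. Across the other 31 arrays, 15 of 127 member probe sets still correlated with the Gapdh ratio at an adjusted permutation p under 0.05, and r was beyond -0.5 or 0.5 for 11% of member probe sets, beside 7.13% of all. The dimmer Kcnab2 probe set had r = -0.68 there (adjusted p = 0.00191; rho = -0.41, adjusted p = 0.102), and -0.58, -0.81 and -0.59 within treated Tg2576, vehicle Tg2576 and wild type. Leaving out the 2 farthest of the 31 gave -0.46. A dimmer Cacna1d probe set had r = -0.64 (adjusted p = 0.00339; rho = -0.66, adjusted p = 0.00762), and -0.54 without the 2 farthest. The brightest Kcna1 probe set went the other way, with r = 0.59 (adjusted p = 0.00974; rho = 0.55, adjusted p = 0.0196), and 0.45 without the 2 farthest. The part of RNA quality in these signals was not tested further.

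**Figure D4:**
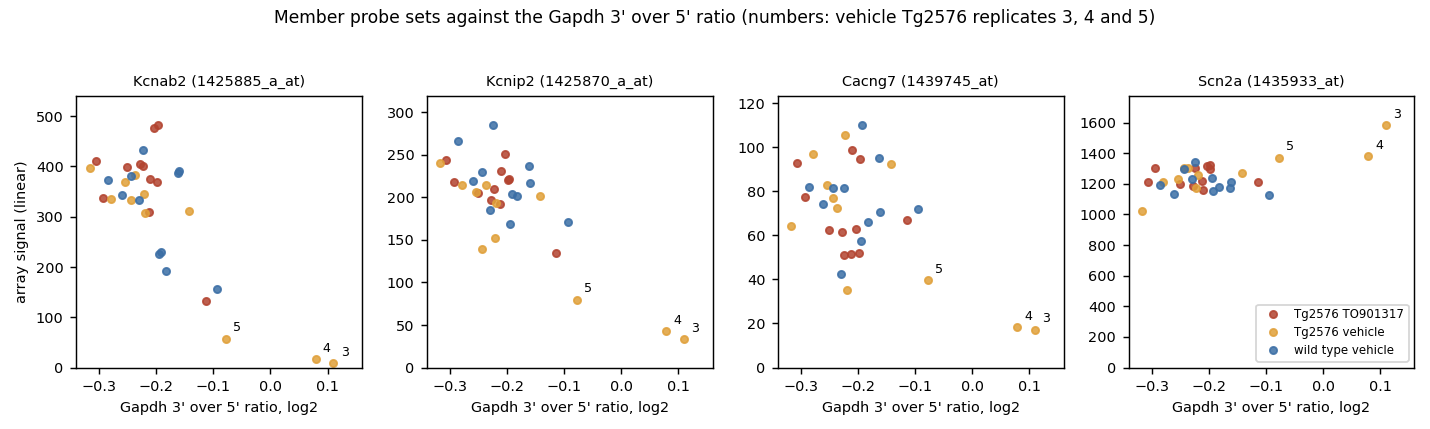
Linear array signal (y axis) of 4 member probe sets against the log2 ratio of 3′ to 5′ Gapdh control probe sets (x axis) on 33 arrays, coloured by group, with vehicle Tg2576 replicates 3, 4 and 5 numbered. Replicates 3 and 4 read 9.29 and 17.1 on the dimmer Kcnab2 probe set, 33.1 and 42.5 on the dimmer Kcnip2 probe set and 17.3 and 18.5 for Cacng7, and they were the highest 2 for Scn2a at 1581 and 1383.

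Subunits were also compared with each other from animal to animal, after each group's mean was taken off. Over all 1596 pairs of members the median Pearson's r was 0.02, and it was 0.06 over the 145 pairs of the same class. All points share the array and the dissection of the animal. Of these pairs, 2 passed a permutation test within groups at an adjusted p under 0.05. Kcnc2 (Kv3.2) and Kcnd3 (Kv4.3), pores found together in hippocampal interneurons, had r = 0.76 (p = 1e-05, the smallest the permutations can give, adjusted p = 0.00798) and rho = 0.77 (adjusted p = 0.016). It was 0.69, 0.73 and 0.82 within treated Tg2576, vehicle Tg2576 and wild type, and 0.74 without the 2 farthest arrays. Among all other genes tested, Kcnc2 had the highest r with Kcnd3, and Kcnd3 ranked 3 for Kcnc2.

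The other pair was Kcnd2 (Kv4.2) and Scn3b, with r = 0.72 (adjusted p = 0.00798) and rho = 0.65 (adjusted p = 0.0532). Within treated Tg2576, vehicle Tg2576 and wild type r was 0.64, 0.79 and 0.82, and it was 0.62 without the 2 farthest arrays. Kcnd2 was the gene of highest r with Scn3b, while Scn3b ranked 7 for Kcnd2, whose highest r was with Epha4 (0.86). Of 17 pairs known to assemble or act together that were looked up, Kcnd2 with its partner Kcnip4 had the smallest p, at r = 0.61 (p = 0.0002, adjusted p = 0.0684) and rho = 0.58 (adjusted p = 0.125), with 0.38, 0.87 and 0.68 in the same groups. Kcna2 with Kcna4 had 0.54 (adjusted p = 0.175; rho = 0.51, adjusted p = 0.223), Kcnc1 with Kcnc2 0.45 (adjusted p = 0.179; rho = 0.50, adjusted p = 0.203) and Kcna1 with Kcnab2 0.47 (adjusted p = 0.202; rho = 0.43, adjusted p = 0.285). The pairs Kcna2 with Kcnab2 and Cacna1a with Cacnb4 stood at 0.04 and -0.04, and Cacna1b with Cacnb4 at -0.17. Kcnd2 with Kcnip3, another KChIP partner, had -0.34 (adjusted p = 0.424; rho = -0.40, adjusted p = 0.342).

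**Figure D5:**
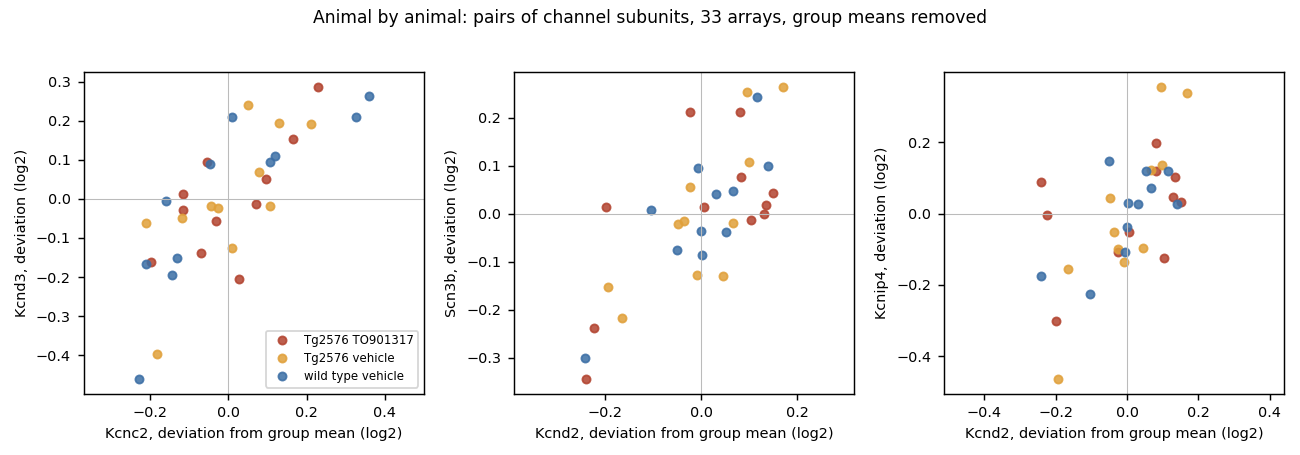
Deviation of each animal from its group's mean (log2) for 3 pairs of members: Kcnd3 against Kcnc2, Scn3b against Kcnd2, and Kcnip4 against Kcnd2, 33 arrays coloured by group. Points run upward to the right in all panels, with r of 0.76, 0.72 and 0.61.

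Markers of hippocampal fields were set beside members of these pairs. Unlike the pair values, these correlations kept the group means, so they are not directly comparable with them. Over 33 arrays Kcnd2 correlated with the CA-field markers at r = 0.59 (adjusted p = 0.0219; rho = 0.61, adjusted p = 0.0213), and within treated Tg2576, vehicle Tg2576 and wild type at 0.66, 0.61 and 0.68. Without the 2 farthest arrays r was 0.51. Scn3b correlated with dentate granule cell markers at 0.57 (adjusted p = 0.0224; rho = 0.67, adjusted p = 0.0139; 0.54 without the 2 farthest) and with striatal markers at -0.64 (adjusted p = 0.0115; rho = -0.62, adjusted p = 0.0213; -0.56 without the 2 farthest). Kcnc2 correlated with the CA-field markers at 0.41 (adjusted p = 0.149). In all, 29 of 462 relations between 42 named members and 11 measures passed an adjusted p under 0.05. Among them Kcna1, an axonal pore, correlated with oligodendrocyte markers at 0.57 (adjusted p = 0.0224; rho = 0.51, adjusted p = 0.064; 0.46 without the 2 farthest). Such relations were not computed for all genes, so no background share stands beside the 29 of 462. Many of the 42 were named for a small p between groups or a large spread, and the group means were left in. How far the share of each field in a dissection sets the pairs was not tested.

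Promoters are shown for the pair of highest r, Kcnc2 and Kcnd3, and for Kcnd2, the Kv4 paralogue of the other pair. Each window runs from 250 bases before to 50 after the RefSeq start on GRCm38.p6, 5′ to 3′ in the direction of the gene. All are on the plus strand. Kcnc2 has 4 windows, of which the first is shown, at chr10:112269767-112270066. Kcnd3 lies at chr3:105451640-105451939 and Kcnd2 at chr6:21215096-21215395. Capitals mark a GC box (GGGCGG).
Kcnc2: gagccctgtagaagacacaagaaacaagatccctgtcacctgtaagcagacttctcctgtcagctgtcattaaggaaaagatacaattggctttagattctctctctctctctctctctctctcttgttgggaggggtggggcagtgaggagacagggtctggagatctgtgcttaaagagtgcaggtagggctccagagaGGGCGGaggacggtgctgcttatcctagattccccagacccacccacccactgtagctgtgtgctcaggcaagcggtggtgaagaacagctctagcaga
Kcnd3: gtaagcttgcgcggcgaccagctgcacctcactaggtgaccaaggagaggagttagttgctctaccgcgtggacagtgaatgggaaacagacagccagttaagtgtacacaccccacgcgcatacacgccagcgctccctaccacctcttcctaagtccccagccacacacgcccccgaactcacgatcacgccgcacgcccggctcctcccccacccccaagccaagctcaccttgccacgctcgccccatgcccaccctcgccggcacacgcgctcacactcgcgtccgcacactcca
Kcnd2: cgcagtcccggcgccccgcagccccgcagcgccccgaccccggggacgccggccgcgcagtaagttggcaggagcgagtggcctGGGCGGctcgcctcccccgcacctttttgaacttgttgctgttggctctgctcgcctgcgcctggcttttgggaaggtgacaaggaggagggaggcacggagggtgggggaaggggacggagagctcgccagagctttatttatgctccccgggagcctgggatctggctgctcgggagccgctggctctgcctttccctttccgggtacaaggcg

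These windows differ in makeup. Kcnc2 has 52.7% G and C with 3 CpG dinucleotides, Kcnd3 64% with 25 and Kcnd2 68.7% with 26. Over the first windows of 43 members with an entry in the table the medians were 62.7% and 17, beside 52.7% and 7 over 27025 genes. The 27025 were not limited to genes above the signal limit, which every member passed. Here and for the motifs below, the background thus differs from the members in this respect too. Both strands were searched for a GC box (GGGCGG), a cyclic AMP response element (TGACGTCA), an E-box (CACGTG) and a TATA box (TATAAA), none of which contains another. The GC box stood in 24 of 43 member windows (55.8%), beside 35.9% of all, in Kcnc2 and Kcnd2 but not in the Kcnd3 window. The other 3 were in none of the shown windows. They were in 0, 0 and 1 of the 43 member windows, beside 1.88%, 7.24% and 14.2% of all windows. The motif counts describe these letters and not binding.

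For the 3 members of largest spread, the genes of most similar pattern were found by Pearson's r over the 33 arrays with group means taken off. For Cacng8 they were Pdia3 (0.85), Mageh1 (0.84), Rab12 (0.81), Gpc1 (0.80) and Atcay (0.79). For Cacng7 they were Cenpb (0.79), Neurl1b, Srsf9, Spock1 and Net1, down to 0.75. For Cacna1f they were Srrm1 (0.62), Oscar, Lhfp, Actl7b and Opn4, down to 0.57. None of the Cacna1f values reached those of the other 2 members. The r values include the vehicle Tg2576 arrays on which Cacng8 and Cacng7 read lowest. They were not recomputed without those arrays, so how far a few arrays set these neighbours was not tested.

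Other channel genes and partners, from lists chosen with earlier results known, gave no call either. None of 10 silent and modifying Kv subunits, 8 calcium- and sodium-activated potassium channels, 9 inward rectifiers, 7 Kcnk potassium channels and 24 channel partners and scaffolds passed in any comparison. The last of these lists also holds Nalcn, Hvcn1 and Catsper2, which are channels themselves. Among modifying subunits Kcne1l was -0.51 between treated and vehicle Tg2576 (SE 0.14, adjusted p = 0.0904). Of 9 inward rectifiers 4 had an unadjusted p under 0.05 there, all higher, beside 5.04% of all genes, with Kcnj4 at 0.38 (SE 0.15, adjusted p = 0.292) and a list median of 0.13, beside -0.01 over all genes. As a mean deviation of these 9, vehicle Tg2576 replicates 1 to 5 stood at -0.14, -0.35, -0.27, -0.17 and -0.20. Replicate 11 stood at -0.16 and the other vehicle animals between -0.06 and 0.19. Treated animals ran from -0.09 to 0.26. The list was not counted without replicates 3, 4 and 5. Of the 24 genes in the list of partners and scaffolds 5 were higher at an unadjusted p under 0.05 between treated and vehicle Tg2576, beside the same 5.04%. Ank2, the ankyrin-B gene, was at 0.17 (SE 0.05, adjusted p = 0.183). The median of this list was -0.004, beside -0.01 over all genes. Between vehicle Tg2576 and wild type Nedd4l, a ubiquitin ligase that removes channels from the membrane, was -0.22 (SE 0.06, adjusted p = 0.0853), Kcnj4 -0.32 (adjusted p = 0.386) and Kcnk12 -0.30 (adjusted p = 0.252).

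Markers of other cells in the dissection were set beside these values. Of the blood list 0 of 3 genes could be tested. In vehicle Tg2576 against wild type, the dentate marker Tdo2 stood at -0.77 (adjusted p = 0.0013) and the astrocyte marker Slc4a4 at -0.27 (adjusted p = 0.0018), as log2 differences. Slco1a4, an endothelial transporter, rose by 0.42 on the log2 scale in treated against vehicle Tg2576 (adjusted p = 0.0125). In treated Tg2576 against wild type Npy fell by 0.55 (adjusted p = 0.00385), Slc4a4 by 0.29 (adjusted p = 0.000352) and Gpr17 by 0.39 (adjusted p = 0.0487). Of 7 meningeal markers 6 were higher in vehicle Tg2576 than in wild type at an unadjusted p under 0.05, and of 7 astrocyte markers 5 were lower and 1 higher. Over all genes 6.31% were higher and 5.46% lower there. Npy stands in a list of 8 interneuron markers, of which 1 was higher and 3 lower at that level between treated Tg2576 and wild type, with a median of -0.03. The summed dentate markers ran over 710, 776 and 977 in treated Tg2576, 594, 824 and 1072 in vehicle Tg2576 and 748, 1029 and 1219 in wild type. The part of these markers in the channel values was not tested beyond the fits with marker scores as covariates.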

How the data were processed

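Gene expression was measured on 33 Affymetrix MOE430 2.0 arrays, 1 per animal, 11 per group. The deposited values are linear signal intensities that the authors made with MAS5, per the submitters' processing notes; its version and settings, the genome build and any batches were not given in the sources used here. Of 45101 probe sets, 64 are controls, 34945 name 1 gene, 932 several and 9160 none in the platform annotation. The brightest single-gene probe set stood for each gene, and 12971 genes with a mean signal above 13 were tested on log2(signal + 16), which understates the change of dim genes, with limma 3.58.1 in R 4.3.3 (1 fit over the 3 groups, trend and robust eBayes, Benjamini-Hochberg adjustment over all genes tested). The comparisons share arrays. The fit across genes was checked on simulated data.

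Members and lists were chosen with earlier results of these data known. Named by rule, with values, are the 5 members of smallest p on each side of 0 in each comparison, the member of highest mean signal in each class, the 5 of largest pooled SD, those at the signal limit and a list of well-known subunits; other members are named with a difference or in a range. Correlations have permutation p-values (100000 resamples), adjusted over their family, and are descriptions of shared arrays. Those between members had group means taken off and were permuted within groups. Those with marker scores or the Gapdh ratio kept the group means and were permuted over all arrays used. Promoter windows are those of RefSeq on GRCm38.p6, from 250 bases before to 50 after a gene's start. Alternatives varied the pseudocount, signal limit, scaling, choice of probe set, arrays, block, covariates and test. The labels do not say that a replicate number is shared by littermates or a batch, so no pairs were formed. With no depth in array data, 11 arrays a group limit the precision.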

Additional observations from a re-analysis of the deposited data

How the results depend on the processing

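No channel subunit was called (adjusted p under 0.05) in any comparison in any of 15 alternative fits or in any of 33 fits that each left out 1 array, so these counts ran from 0 to 0. The smallest adjusted p of a member over the 15 alternatives was 0.068 between treated and vehicle Tg2576 (replicate block), 0.0681 between vehicle Tg2576 and wild type (Gapdh ratio as covariate) and 0.113 between treated Tg2576 and wild type (mean over a gene's probe sets). The number of members at an unadjusted p under 0.05 between vehicle Tg2576 and wild type was 6 with the marker scores as covariates, against 10. Between treated Tg2576 and wild type it was 3 with a rank-sum test, against 5. The median difference over the members between treated and vehicle Tg2576 was 0.0509 with the mean over probe sets, against 0.0148. The cause was not tested. Leaving out 1 array gave 7 to 10 members at an unadjusted p under 0.05 between treated and vehicle Tg2576, 8 to 13 between vehicle Tg2576 and wild type and 1 to 6 between treated Tg2576 and wild type. In the last comparison it was 1 without wild-type replicate 10, 2 without treated replicates 2, 9 or 11, and 3 without treated replicates 1, 7, 8 or 10 or wild-type replicates 1, 7 or 8. The medians ran over 0.0079 to 0.0309, -0.0023 to 0.0215 and 0.0098 to 0.0330 in these comparisons. Over all genes, 20 to 42, 22 to 55 and 22 to 50 were called. Of 6048 alternative values for 42 named members, 253 changed sign, 0 of them where the main p was under 0.05. Many of the 6048 could not change sign. The rank-sum test, the fits of 2 groups, the replicate block, the fit without trend and the other signal limits keep each difference as it is. Leaving out an array of the group outside a comparison does so too. These counts are thus no measure of stability.

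Replicate numbers are shared by the groups. Same-numbered animals deviated together at r = 0.04 to 0.19 (median 0.10) between treated and vehicle Tg2576, -0.11 to 0.12 (median 0.02) between vehicle Tg2576 and wild type and -0.02 to 0.22 (median 0.08) between treated Tg2576 and wild type. Of 11 pairs 6, 1 and 3 were above 0.1, and 2, 1 and 1 correlated best with their own number. Not every pair was above 0.1, so the numbers were not taken to pair the samples. With the replicate block 0 members were called in each comparison and 9, 9 and 4 had an unadjusted p under 0.05. The added 16 compresses the differences of signals near the limit of 13, and 11 arrays a group leave differences under about 0.25 unresolved for many members.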
